A study of Mus musculus with 24 samples.

Results

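The cytochrome P450 genes of the mouse kidney were followed through obstruction of the ureter and its release. The members were the protein-coding rows of the deposited expression table whose symbol starts with Cyp and a digit, without the vitamin D enzymes Cyp24a1 and Cyp27b1, together with Por, the reductase that passes electrons to the microsomal P450s. This gave 35 members, 34 Cyp genes and Por, of 14785 genes in the table. All 35 were tested, none had a value of 0 in any library, and the lowest member value was 0.31 FPKM. FPKM, a read count scaled to transcript length and library size, is the unit assumed here, as none was named with the values.

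The study measured polyA-selected RNA from whole kidneys of male C57/BL6 mice that were 8 to 9 weeks old at the start, in 24 libraries that fall into 6 groups of 4. Sham mice had surgery without obstruction. UUO2 and UUO7 mice had unilateral ureteral obstruction, a ligation of the ureter, for 2 and 7 days. R1W, R2W and R4W mice had 7 days of obstruction and then reimplantation of the ureter, and were killed 1, 2 and 4 weeks after that reversal. The labels name the strain and no other genotype, and 4 of 10 animals per group were chosen for sequencing.

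Cytochrome P450s are haem enzymes that insert oxygen into lipids, sterols, hormones and foreign compounds. In the kidney they are concentrated in the proximal tubule, where Cyp4a enzymes hydroxylate fatty acids and arachidonic acid at the end of the chain and Cyp2c and Cyp2j enzymes make epoxides from arachidonic acid, both of which act on vessel tone and salt transport. Others make or clear sterols and retinoids, and Por supplies the electrons for most of them.

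The UUO2 libraries stood apart from the other 5 groups. The mitochondrial ribosomal RNA Mt-Rnr1 was at 2343 to 2832 FPKM in them and at 342 to 709 FPKM in the other 20 libraries, and the design text speaks of 20 libraries. How far this bears on the results of UUO2 was not tested, and without these libraries in the fit UUO7 against sham gave 19 members lower and 13 higher, where 17.9% of all genes were lower and 59.8% higher. The replicate titled R4W 2 has a treatment label that says 2 weeks and was grouped by its title. Marker genes of fat were high in R4W replicate 1, where 5 measured adipocyte genes of 7 listed summed to 1644 FPKM, against 62.5 FPKM in the lowest R4W library. R4W replicate 1 also had the highest R4W urothelium sum, 141 FPKM against 42.6 in the lowest, and the highest adrenal cortex sum, 40.4 against 17.8. Sham replicate 2 held the highest sham sum of 8 of 10 marker lists. Its adipocyte sum was 291 FPKM against 40.4 in the lowest sham library, its injured tubule sum 861 against 470 and its urothelium sum 34.2 against 1.45. Without it, 19 members were lower and 12 higher in UUO7 against sham (17.3 and 60.2% of all genes), 14 and 11 in UUO2 (15.2 and 33.1%) and 10 and 10 in R4W (11.3 and 54.6%). Of the calls given here it ended those of Cyp2d9, Cyp2d12 and Cyp2d26 in R4W against sham (adjusted p = 0.0844, 0.09 and 0.0629) and of Cyp27a1 in UUO2 (0.0651). The median gene was not level between groups: it lay 0.09 above sham in UUO2, 0.42 above in UUO7 and 0.30 above in R4W on the log2(FPKM + 1) scale, 0.28 higher in UUO7 than in UUO2, and at -0.02, -0.08 and -0.05 in R1W against UUO7, R4W against UUO7 and R4W against R1W. Each call was therefore also made after rescaling every library by its median ratio to the typical library, and the outcome is given where it changed a call that is named here. The files hold no counts, so the depth behind each value is unknown.

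In sham kidney the 34 Cyp genes and Por, whose total is called the P450 sum here, came to 4408 ± 253 FPKM (SD, n = 4), of which the 34 Cyp genes made 4263 ± 244. A single gene, Cyp4b1, held 34.7% of that sum. The sum was 4435, 4096, 4714 and 4386 FPKM in the sham libraries, 1982, 2793, 2018 and 1766 in UUO2 and 1279, 1356, 1105 and 1034 in UUO7. All 8 obstructed libraries lay below all 4 sham libraries, and all 4 UUO7 libraries lay below all 4 UUO2 libraries. After reversal the group mean was 1845 ± 433 FPKM in R1W, 2032 ± 587 in R2W and, in R4W, 2662 ± 263, which is 41.9, 46.1 and 60.4% of sham. The 4 R4W libraries, at 2652, 2325, 2703 and 2967 FPKM, lay above every UUO7 library and below every sham library.

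The proximal tubule marker genes moved with this sum, and their part in it was not tested. The 10 markers, all measured and none at 0, are transporters and endocytic receptors such as Slc34a1 and Lrp2. They ranged from 4107 to 4806 FPKM in sham, 1607 to 2754 in UUO2, 922 to 1141 in UUO7 and 2216 to 3040 in R4W, and their means were 44.1, 22.9 and 59.02% of sham in UUO2, UUO7 and R4W. Per 100 FPKM of these markers the P450 sum was 98.7 ± 1.35 FPKM in sham, 110.1 ± 10.7 in UUO2, 117 ± 5.57 in UUO7, 103 ± 7.30 in R1W, 96.9 ± 3.44 in R2W and, in R4W, 101 ± 3.58. In bulk tissue, fewer proximal tubule cells and less P450 RNA per cell cannot be told apart. Other marker lists changed too. The 7 distal nephron genes had a mean sum of 2787 FPKM in sham, 1419 in UUO2, 1446 in UUO7 and 2956 in R4W. For the 6 injured tubule genes it was 581 FPKM in sham, 22328.8 in UUO2, 18062.5 in UUO7 and 2815 in R4W. The part of these lists was not tested. The share of the P450 sum held by Cyp4b1 was 12.2% in UUO2, 12.6% in UUO7 and 27.2% in R4W.

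**Figure D1:**
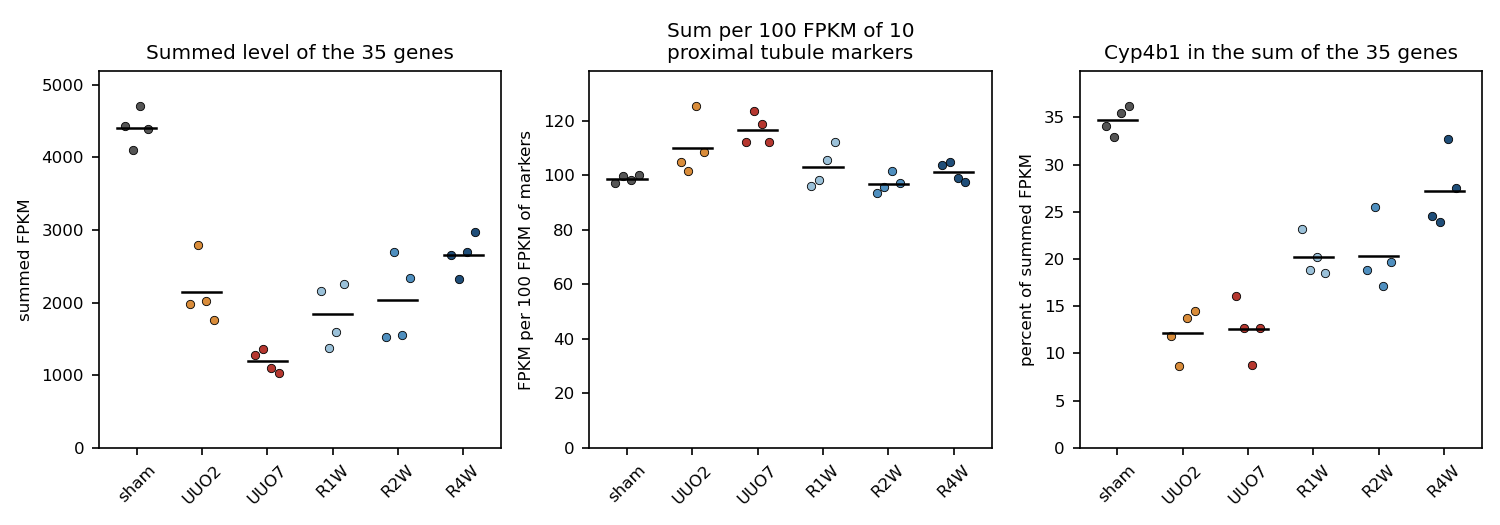
Summed FPKM of the 35 genes (left), that sum per 100 FPKM of 10 proximal tubule markers (middle) and the share of the sum held by Cyp4b1 in percent (right), for each library of the 6 groups, with dots for libraries and bars for the mean of 4. The sum is highest in sham and lowest in UUO7, the sum per marker level stays between group means of 96.9 and 117, and the Cyp4b1 share is highest in sham.

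Gene by gene, the P450s abundant in sham fell by day 7 of obstruction, and a smaller set of members, most of them at a low level, rose. At day 2 the abundant Cyp2a4, Cyp4a10 and Cyp4a31 were not called, and Cyp2a5 and Cyp4a14 rose to means of 134 and 108 FPKM. With limma over all 24 libraries and an adjusted p under 0.05 over all genes, 15 of 35 members fell and 11 rose in UUO2 against sham, while 17.0% of all genes fell and 32.3% rose. After rescaling, 18 fell and 11 rose, where 25.5 and 25.3% of all genes did. In UUO7 against sham 19 members fell and 13 rose, against 17.8 and 60.1% of all genes, and after rescaling 21 fell and 7 rose, against 36.5% of all genes in each direction. The authors' deposited table calls 22 members lower and 8 higher for UUO7 against sham, beside 37.4% of all genes lower and 35.4% higher in that table, and 16 lower and 11 higher for UUO2 against sham, beside 24.0% and 26.3%. The members' median log2 difference was -0.11 in UUO2 and -0.62 in UUO7, beside medians of 0.09 and 0.42 over all genes. Leaving out UUO2 replicate 2, which held the highest UUO2 value of 25 of the 35 members, gave 18 lower and 11 higher in UUO2, against 18.9 and 33.8% of all genes.

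From day 2 to day 7 of obstruction 13 members fell and 13 rose, against 14.7 and 52.0% of all genes, with 17 lower and 7 higher after rescaling (31.9 and 30.0% of all genes). This comparison shares its UUO7 libraries with the previous one and its UUO2 libraries with the first.

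Fewer members were called against UUO7 at 1 week after release than at 4 weeks. In R1W against UUO7, 6 members rose and 2 fell, where 6.47% of all genes rose and 8.04% fell. The authors' deposited table calls 11 higher and 2 lower there, beside 1494 and 1626 of all 14785 genes in that table. The 6 that rose were Cyp4b1, Cyp2d9, Cyp2d26, Cyp2j11, Cyp7b1 and Cyp51. Of the 2 that fell, Cyp4f13 was lost after rescaling and in 7 of 8 leave-one-out fits (adjusted p up to 0.143), and Cyp4a12b was lost without UUO7 replicate 3. In R4W against UUO7, 18 members rose and 7 fell, against 17.6 and 30.8% of all genes, with 18 higher and 5 lower after rescaling (25.1 and 23.2% of all genes), and with 18 higher and 4 lower in the authors' deposited table (25.7 and 27.0%). Between R1W and R4W 6 members rose and 1 fell, against 5.06 and 14.1% of all genes. That count and the share of all genes moved when a library was left out. Without R1W replicate 3, 2 members and 1.06% of all genes rose. Without R4W replicate 1, 3 or 4 it was 4 members and 2.61 to 3.27% of all genes, without R1W replicate 2 it was 4 and 7.23%, and without R1W replicate 1 it was 8 and 6.36%. The single fall, of Cyp20a1, was lost in 5 of 8 leave-one-out fits, without R1W replicate 2, 3 or 4 or R4W replicate 1 or 4 (adjusted p = 0.0548 to 0.0729). When only the R1W and R4W libraries were fitted, limma called 0 members higher and 0 lower, and 0.21 and 0.879% of all genes. At an unadjusted p under 0.05 it had 11 members higher and 3 lower, beside 9.1 and 21.5% of all genes. R2W was given no test, and its values are given as a description.

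After 4 weeks of recovery members were called on both sides of sham. In R4W against sham 13 members were lower and 10 higher, against 11.6 and 54.8% of all genes. After rescaling 19 were lower and 7 higher, against 31.1 and 28.9% of all genes, and the authors' deposited table calls 19 lower and 8 higher, beside 34.4 and 30.5% of all genes there. Without R4W replicate 2, the library with the other label, 9 were lower and 10 higher, against 10.0 and 51.2% of all genes. Without R4W replicate 1, the one with the fat markers, 12 were lower and 10 higher, against 10.5 and 52.1%. Each of the 3 comparisons that use R4W shares those 4 libraries.

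**Figure D2:**
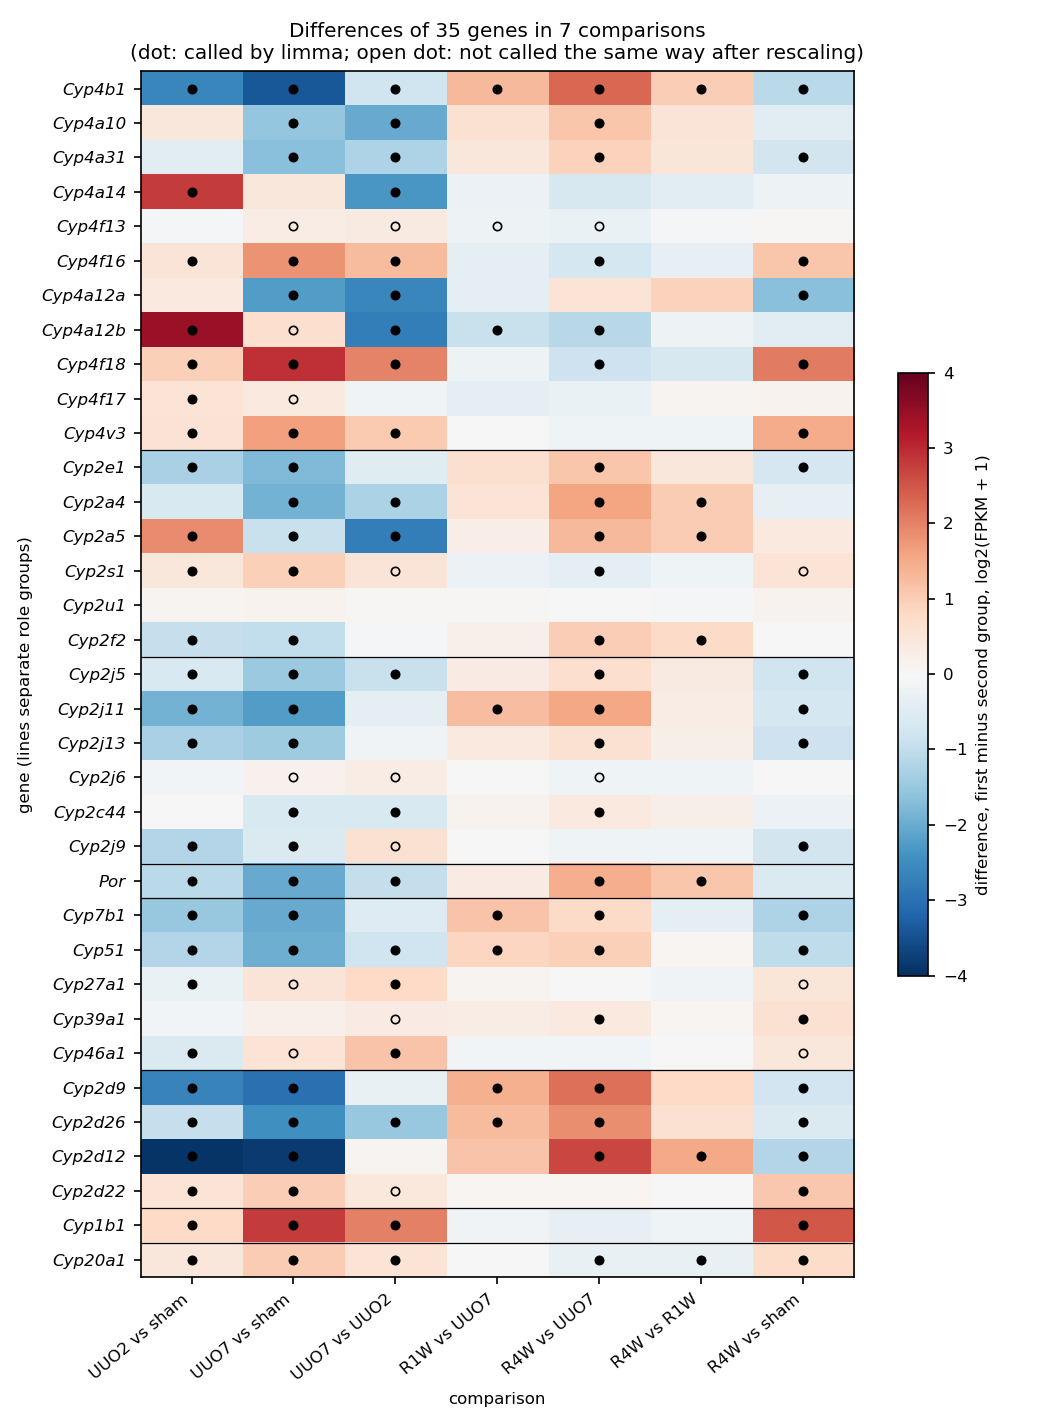
Heat map of the log2 difference (log2(FPKM + 1) scale, first group minus second) of the 35 genes in 7 comparisons, ordered by role, with a filled dot where the gene was called and an open dot where the call was not made the same way after rescaling. In UUO7 against sham Cyp2d12, Cyp2d9, Cyp2d26, Cyp4b1 and Cyp2j11 are lower and Cyp1b1, Cyp4f18, Cyp4f16 and Cyp4v3 are higher.

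Among the 11 fatty acid hydroxylases of the Cyp4 family, Cyp4b1, Cyp4a10, Cyp4a31 and Cyp4a12a fell by day 7, while Cyp4f16, Cyp4f18 and Cyp4v3 rose. In UUO7 against sham 4 of the 11 were lower and 6 higher, where 17.8% of all genes were lower and 60.1% higher. After rescaling 5 were lower and 3 higher, where 36.5% of all genes went each way. Cyp4b1 (chr4:115624725-115647723, minus strand, in the coordinates of the deposited table, build mm10), which oxidises fatty acids and some lung and kidney toxicants, was the most abundant P450 of sham kidney. In the order of replicates 1 to 4, which holds for each list of 4 values, it stood at 1513, 1347, 1671 and 1590.4 FPKM in sham, 234, 243, 277 and 255 in UUO2 and 206, 172, 96.99 and 131 in UUO7. No sham library overlapped any other group, and the UUO7 libraries lay below the UUO2 libraries. Its log2 difference from sham was -2.59 ± 0.26 (SE, limma adjusted p = 1.2e-07) in UUO2 and -3.38 ± 0.26 (adjusted p = 5.37e-10) in UUO7. Folds on the log2(FPKM + 1) scale understate the change of low genes, but Cyp4b1 is high, and its UUO7 mean was 9.90% of its sham mean.

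The further fall of Cyp4b1 from UUO2 to UUO7 was -0.78 (adjusted p = 0.0119) and missed the threshold without UUO7 replicate 3, at adjusted p = 0.0583. After reversal the libraries read 501, 258, 321 and 419 FPKM in R1W, 287, 690.4, 267 and 462 in R2W and, in R4W, 650.3, 557, 884 and 817. The R1W libraries lay above the UUO7 libraries, with a log2 difference of 1.31 ± 0.26 (adjusted p = 0.00337), and the R4W libraries above the R1W libraries. That last difference, 0.98 (adjusted p = 0.0158), missed the threshold without R1W replicate 3 (adjusted p = 0.0644) and when only the 2 groups were fitted (adjusted p = 0.0589). At 4 weeks Cyp4b1 was at 47.5% of sham, a log2 difference of -1.09 ± 0.26 (adjusted p = 0.00109).

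**Figure D3:**
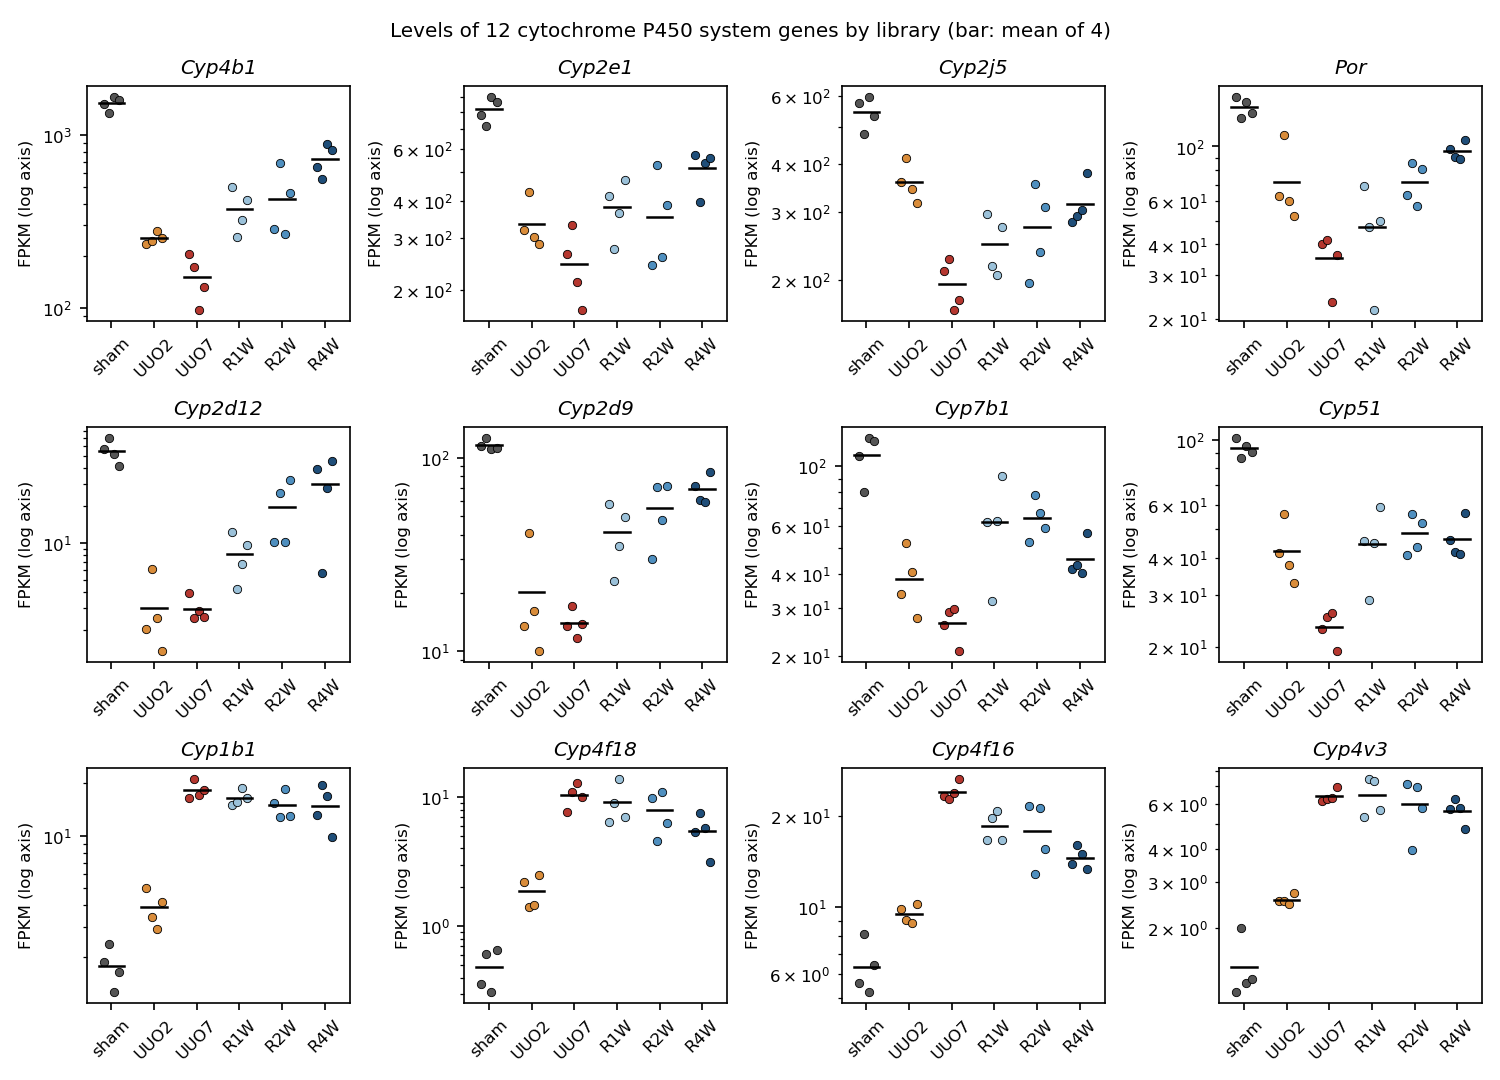
FPKM on a log axis of 12 genes in each library, with dots for libraries and a bar for the mean of 4, in the order sham, UUO2, UUO7, R1W, R2W, R4W. Cyp4b1, Cyp2e1, Cyp2j5, Por, Cyp2d12, Cyp2d9, Cyp7b1 and Cyp51 have their highest group mean in sham, while Cyp1b1, Cyp4f18, Cyp4f16 and Cyp4v3 have their lowest there.

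The Cyp4a genes, whose products omega-hydroxylate fatty acids and arachidonic acid and several of which are PPAR-alpha targets, gave different patterns at day 2 and day 7. Cyp4a14 (chr4:115486200-115496142, minus strand) stood at 12.5, 43.5, 9.71 and 4.92 FPKM in sham, 83.8, 208, 86.9 and 55.2 in UUO2 and 10.5, 21.99, 29.6 and 15.4 in UUO7. Every UUO2 library lay above every sham and every UUO7 library, and the UUO7 and sham libraries overlapped. It rose by 2.79 ± 0.81 in UUO2 against sham (adjusted p = 0.00683). From UUO2 to UUO7 the difference was -2.34 (adjusted p = 0.0147), which missed the threshold without UUO2 replicate 2 at -1.97 (adjusted p = 0.0528). In recovery the values were 21.7, 10.9, 3.10 and 61.4 FPKM in R1W, 8.69, 6.01, 4.99 and 48.9 in R2W and, in R4W, 26.02, 20.2, 2.29 and 10.6. The highest R1W and R2W libraries lay above every sham library.

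Cyp4a10 (chr4:115518264-115533649, plus strand) was not called at day 2. It stood at 126, 173, 123 and 91.9 FPKM in sham, 139.5, 333, 156 and 122 in UUO2 and 34.8, 48.7, 51.3 and 35.8 in UUO7. UUO2 overlapped sham, with a difference of 0.46 (adjusted p = 0.403), and UUO7 lay below both. The fall against sham in UUO7 was -1.56 ± 0.43 (adjusted p = 0.00254), and recovery gave 88.4, 38.6, 33.7 and 145 FPKM in R1W, 55.6, 73.9, 53.7 and 165 in R2W and, in R4W, 108, 136, 48.4 and 102. The library with the highest Cyp4a10 value was also the highest for Cyp4a14 in 5 of 6 groups. Cyp4a31, a close relative, stood at 119.7, 134, 138 and 108 FPKM in sham, 85.2, 153, 75.9 and 70.5 in UUO2, 35.9, 43.02, 40.98 and 34.3 in UUO7 and 73.95, 88.3, 53.8 and 86.2 in R4W. Its R1W values were 59.2, 42.4, 36.6 and 82.9 FPKM and its R2W values 51.1, 71.3, 48.7 and 97.8 FPKM. UUO7 lay below every sham library for Cyp4a31, with a difference of -1.67 (adjusted p = 4.62e-06). In GENCODE M21 the coding sequences of Cyp4a10 and Cyp4a31 are 96.6% identical. Of the 100-base transcript windows, 12.7% of Cyp4a10 and 8.22% of Cyp4a31 occur identically in another gene. How the counting divided such reads was not tested. The pair summed to 253 FPKM in sham, 284 in UUO2, 81.2 in UUO7 and 174 in R4W.

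Cyp4a12a and Cyp4a12b, which make the vasoconstrictor omega-hydroxylated arachidonic acid and of which the former is known as the male form, are close copies on chromosome 4 at chr4:115299046-115332815 and chr4:115411624-115439034, both on the plus strand. In GENCODE M21 transcripts their coding sequences share 1504 of 1527 bases (98.49%), and 35.8% of the 100-base windows of the Cyp4a12a transcript and 36.2% of those of Cyp4a12b occur identically in the other gene, so that a read lying within such a window fits both. Coding bases 624 to 683 are shown because 4 of the 23 differing bases lie here, in capitals:
Cyp4a12a: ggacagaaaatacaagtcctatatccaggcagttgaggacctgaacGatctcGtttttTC
Cyp4a12b: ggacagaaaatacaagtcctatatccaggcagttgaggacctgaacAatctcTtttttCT
How the counting divided shared reads between the copies was not tested, so the sum of both is given too.

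Cyp4a12b rose at day 2, Cyp4a12a was not called then and fell by day 7. Cyp4a12b stood at 2.36, 3.96, 1.90 and 2.73 FPKM in sham, 49.01, 32.1, 41.9 and 34.2 in UUO2, 4.68, 4.41, 6.34 and 4.14 in UUO7, 2.52, 1.65, 1.92 and 2.54 in R1W, 1.35, 2.04, 1.59 and 4.04 in R2W and, in R4W, 2.79, 2.24, 0.77 and 1.55. All UUO2 libraries lay far above the rest, with a difference from sham of 3.44 ± 0.24 (adjusted p = 5.42e-10). At day 7 the difference from sham was 0.67 (adjusted p = 0.0133), which was lost after rescaling at 0.30 and, at adjusted p = 0.051, without sham replicate 3. Cyp4a12a stood at 25.97, 10.9, 23.9 and 35.5 FPKM in sham, 39.5, 20.7, 32.2 and 27.2 in UUO2, 6.82, 4.23, 3.60 and 2.21 in UUO7, 5.30, 1.08, 1.83 and 4.77 in R1W, 4.35, 3.88, 7.65 and 9.94 in R2W and, in R4W, 3.74, 5.45, 7.04 and 10.1. UUO2 overlapped sham (difference 0.38, adjusted p = 0.448), and UUO7 and R4W lay below every sham library, at -2.23 (adjusted p = 2.45e-05) and -1.68 (adjusted p = 0.00081). The pair summed to 26.8 FPKM in sham, 69.2 in UUO2, 9.11 in UUO7 and 8.41 in R4W.

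Cyp4f16, Cyp4f18 and Cyp4v3, low-level Cyp4 members, rose in UUO7. Cyp4f18, a leukotriene hydroxylase of leukocytes, stood at 0.36, 0.61, 0.31 and 0.65 FPKM in sham, 2.19, 1.41, 1.45 and 2.50 in UUO2, 7.69, 11.01, 12.8 and 9.96 in UUO7, 6.45, 8.92, 13.9 and 7.07 in R1W, 9.81, 4.56, 10.9 and 6.25 in R2W and, in R4W, 5.37, 7.58, 5.80 and 3.17. No obstructed or released library overlapped sham, and the log2 difference in UUO7 was 2.93 ± 0.25 (adjusted p = 1.66e-09). Every sham value lay under 1 FPKM, the lowest mean over the 24 libraries that a gene of the deposited table has. Cyp4f18 is thus in the table through its other groups, and its gap from sham carries that limit. From UUO7 to R4W it fell, with a log2 difference of -0.84 (adjusted p = 0.00867). The 7 macrophage markers summed to 55.1 to 94.6 FPKM in sham and 1140 to 1355 FPKM in UUO7, with 7 of 7 higher. In R4W they summed to 777 to 1552 FPKM, and 0 of 7 were called lower or higher than in UUO7. Their part in either result was not tested. Cyp4f16 stood at 5.59, 8.10, 5.22 and 6.41 FPKM in sham, 9.83, 9.01, 8.85 and 10.2 in UUO2, 23.2, 22.7, 23.7 and 26.5 in UUO7, 16.6, 19.7, 20.8 and 16.6 in R1W, 21.5, 12.8, 21.2 and 15.5 in R2W and, in R4W, 13.8, 16.03, 14.9 and 13.3, with a UUO7 difference from sham of 1.78 (adjusted p = 3.7e-10). Cyp4v3, whose human relative hydroxylates fatty acids, stood at 1.13, 2.00, 1.22 and 1.27 FPKM in sham, 2.54, 2.53, 2.46 and 2.72 in UUO2, 6.12, 6.24, 6.28 and 6.95 in UUO7, 5.31, 7.48, 7.35 and 5.69 in R1W, 7.16, 3.96, 6.95 and 5.79 in R2W and, in R4W, 5.70, 6.22, 5.76 and 4.78, and differed from sham by 1.63 in UUO7 (adjusted p = 1.39e-09). Between UUO7 and R4W, Cyp4f16 fell (-0.69, adjusted p = 0.000333), and Cyp4v3 was not called (-0.16, adjusted p = 0.329).

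Cyp4f13 showed a direction that depends on scaling. It stood at 28.8, 32.3, 29.5 and 31.2 FPKM in sham, 27.9, 30.5, 28.7 and 28.98 in UUO2, 40.5, 32.4, 39.3 and 39.2 in UUO7, 34.2, 32.2, 33.5 and 31.99 in R1W, 35.7, 32.3, 33.4 and 35.2 in R2W and, in R4W, 30.9, 31.6, 30.1 and 33.4. In UUO7 against sham it was 0.30 higher (adjusted p = 0.000174), and after rescaling it was -0.17 (adjusted p = 0.0246), the opposite call. Cyp4f17, a further Cyp4 member, had a mean of 3.94 FPKM in sham and 5.62 in UUO7, a call that was lost after rescaling.

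The 6 genes of the Cyp2c and Cyp2j families, which include arachidonic acid epoxygenases, were mostly lower than sham: 4 of 6 in UUO2 and 5 of 6 in UUO7, where 17.0 and 17.8% of all genes were lower. In R4W 4 of 6 were higher than in UUO7, against 17.6% of all genes, and 4 of 6 lower than in sham, against 11.6%. After rescaling 6 of 6 were lower than sham in UUO7 and in R4W, against 36.5 and 31.1% of all genes. Cyp2j5 (chr4:96628773-96664154, minus strand), an epoxygenase of the mouse kidney tubule, stood at 577, 477, 598 and 532 FPKM in sham, 359, 415, 344 and 317 in UUO2 and 211, 227, 167 and 177 in UUO7. The 3 groups did not overlap, and the differences from sham were -0.61 (adjusted p = 0.00355) and -1.48 (adjusted p = 4.14e-08). Recovery gave 296, 216, 206 and 275 FPKM in R1W, 196, 354, 236 and 309.6 in R2W and, in R4W, 282, 293, 303 and 379. R4W lay above UUO7, with a difference of 0.68 (adjusted p = 0.0016), and below sham (-0.80, adjusted p = 0.000211).

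Cyp2j11 and Cyp2j13 lie in the same chromosome 4 cluster. Cyp2j11 stood at 98.3, 78.2, 98.6 and 85.5 FPKM in sham, 19.9, 49.7, 20.2 and 15.2 in UUO2, 20.4, 21.4, 15.2 and 16.4 in UUO7, 52.5, 34.8, 36.9 and 56.7 in R1W, 34.6, 60.3, 42.1 and 59.95 in R2W and, in R4W, 53.7, 51.02, 53.5 and 60.8. It differed from sham by -2.24 in UUO7 and -0.71 in R4W (adjusted p = 7.93e-08 and 0.0188). Cyp2j13 stood at 83.7, 66.9, 95.3 and 85.4 FPKM in sham, 34.1, 38.01, 26.99 and 33.3 in UUO2, 34.96, 30.7, 24.5 and 30.6 in UUO7, 51.8, 35.3, 31.4 and 41.3 in R1W, 29.7, 54.9, 33.7 and 39.6 in R2W and, in R4W, 42.1, 38.7, 55.4 and 50.3. The UUO7 difference of Cyp2j13 was -1.43 (adjusted p = 2.63e-07), and all its R4W libraries lay below sham. The remaining members of the group, Cyp2j6, Cyp2j9 and Cyp2c44, had sham means of 14.2, 12.4 and 11.1 FPKM. Cyp2j6 was 0.18 higher in UUO7 than in sham and -0.27 after rescaling, the opposite call.

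Of the 4 Cyp2d genes of chromosome 15, a drug and steroid hydroxylase family, 3 were lower than sham in UUO2, in UUO7 and in R4W, where 17.0, 17.8 and 11.6% of all genes were lower, and Cyp2d12 had the lowest log2 difference of all 35 members in UUO2 and in UUO7. Cyp2d12 (chr15:82555108-82559413, plus strand) stood at 57.7, 70.7, 51.99 and 41.5 FPKM in sham, 2.03, 6.15, 2.50 and 1.34 in UUO2 and 3.91, 2.46, 2.84 and 2.54 in UUO7. The obstructed libraries were all below the lowest sham library, and the UUO2 and UUO7 libraries overlapped. Cyp2d12 differed from sham by -3.93 ± 0.49 in UUO2 (adjusted p = 1.61e-06) and by -3.83 ± 0.49 in UUO7 (adjusted p = 3.94e-07). Recovery libraries read 12.2, 4.22, 6.77 and 9.61 FPKM in R1W, 10.2, 25.3, 10.2 and 32.1 in R2W and, in R4W, 39.6, 5.76, 27.9 and 45.8, where R4W replicate 2 was the lowest. R4W was higher than UUO7 (2.66, adjusted p = 0.000192). The R4W fall against sham, -1.17 (adjusted p = 0.0398), was lost in 5 of 8 leave-one-out fits and was -0.55 (adjusted p = 0.233) without R4W replicate 2. It was also lost when only the 2 groups were fitted (adjusted p = 0.0969).

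Cyp2d9 (chr15:82452377-82456827, plus strand), a testosterone hydroxylase that is more abundant in males, stood at 114, 127, 110.5 and 113 FPKM in sham, 13.6, 40.9, 16.1 and 10.03 in UUO2, 13.5, 17.1, 11.7 and 13.9 in UUO7, 57.5, 23.02, 35.1 and 49.5 in R1W, 30.1, 70.7, 47.7 and 71.1 in R2W and, in R4W, 71.3, 60.2, 59.2 and 83.8. Sham lay above all other libraries. Its differences from sham were -2.66 in UUO2, -2.97 in UUO7 and -0.76 in R4W (adjusted p = 1.34e-06, 5.24e-08 and 0.0452), and the last was lost in 7 of 8 leave-one-out fits (adjusted p up to 0.0974). Cyp2d26 stood at 43.4, 50.6, 50.6 and 47.2 FPKM in sham, 24.6, 38.4, 20.4 and 18.6 in UUO2, 7.24, 10.7, 7.64 and 6.65 in UUO7, 24.9, 14.02, 21.9 and 23.0 in R1W, 16.6, 33.4, 16.3 and 34.7 in R2W and, in R4W, 29.6, 31.97, 29.7 and 34.9, with a UUO7 difference of -2.45 (adjusted p = 8.63e-09). Its R4W difference from sham, -0.59 (adjusted p = 0.0329), was lost in 6 of 8 leave-one-out fits, at adjusted p up to 0.0672. Cyp2d22 was the exception: it was 5.13 ± 0.68 FPKM in sham and 11.1 ± 0.89 in UUO7 (SD, n = 4), a rise of 0.98 (adjusted p = 2.83e-07).

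Of the 6 remaining Cyp2 members, which mostly act on foreign compounds, 2 fell and 2 rose in UUO2 against sham, where 17.0% of all genes fell and 32.3% rose. In UUO7 4 fell and 1 rose, where 17.8% of all genes fell and 60.1% rose. Cyp2e1 (chr7:140763739-140774987, plus strand), which oxidises ethanol, ketones and other small molecules, stood at 785, 717.4, 905 and 869 FPKM in sham, 318, 429, 302 and 285 in UUO2 and 263, 333, 213 and 170.3 in UUO7. Both obstructed groups lay below sham and overlapped each other, with differences from sham of -1.31 ± 0.23 (adjusted p = 8.48e-05) and -1.78 ± 0.23 (adjusted p = 4.87e-07). Recovery gave 415, 276, 365 and 472 FPKM in R1W, 243, 529, 257 and 388 in R2W and, in R4W, 575, 395, 539.8 and 558. R4W lay above UUO7 (1.10, adjusted p = 0.000604) and below sham (-0.67, adjusted p = 0.0139), the latter lost without R4W replicate 2 at adjusted p = 0.0563.

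Cyp2a4 and Cyp2a5 are close copies on chromosome 7, at chr7:26307169-26315088 and chr7:26835305-26843548, both on the plus strand. The former hydroxylates testosterone and the latter coumarin and nicotine. Their coding sequences in GENCODE M21 share 1462 of 1485 bases (98.45%), and 11.2% of the 100-base windows of the Cyp2a4 transcript and 14.4% of those of Cyp2a5 occur identically in another gene. How the counting divided shared reads between these copies was not tested, and the sum of both is given below. Coding bases 596 to 655 are shown because 4 of the 23 differing bases lie here, in capitals:
Cyp2a4: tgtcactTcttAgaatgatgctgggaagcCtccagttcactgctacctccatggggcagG
Cyp2a5: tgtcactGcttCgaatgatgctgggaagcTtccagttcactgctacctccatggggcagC

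Cyp2a5 rose at day 2, when the Cyp2a4 mean was at 66.2% of sham and missed the threshold, and both fell below sham at day 7. Cyp2a5 stood at 44.9, 40.6, 30.8 and 27.2 FPKM in sham, 131, 158, 135 and 110.3 in UUO2 and 19.1, 23.6, 29.2 and 8.74 in UUO7. Every UUO2 library lay above every sham library, a rise of 1.89 ± 0.31 (adjusted p = 4.26e-05), and UUO7 overlapped sham. The UUO7 fall of -0.89 (adjusted p = 0.0128) was lost without UUO7 replicate 4 at -0.56 (adjusted p = 0.0788). Recovery gave 27.98, 18.9, 19.5 and 24.2 FPKM in R1W, 24.6, 33.4, 10.7 and 24.98 in R2W and, in R4W, 62.1, 32.1, 49.2 and 47.9.

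Cyp2a4 stood at 319.9, 310.0, 291 and 259 FPKM in sham, 167, 250.2, 206 and 158 in UUO2 and 93.9, 73.2, 94.3 and 59.6 in UUO7. The 3 groups did not overlap. The UUO2 difference from sham, -0.61, missed the threshold (adjusted p = 0.0572) and passed it after rescaling (-0.75, adjusted p = 0.0375), and the UUO7 difference was -1.89 (adjusted p = 1.23e-06). In recovery Cyp2a4 read 161, 63.1, 101 and 174 FPKM in R1W, 154, 283, 128 and 196 in R2W and, in R4W, 258, 219, 211 and 262. R4W was above UUO7 (1.57, adjusted p = 8.05e-05) and was not called different from sham (-0.31, adjusted p = 0.293), but was called lower after rescaling (-0.69, adjusted p = 0.0463) and in the authors' deposited table (-0.70). The pair summed to 331 FPKM in sham and 329 in UUO2. Over the same groups Cyp2a5 went from 12.1 ± 1.78 to 69.3 ± 6.74 FPKM per 100 FPKM of Cyp2a4 (SD, n = 4). It was 24.6 ± 8.50 in UUO7 and 20.1 ± 4.46 in R4W. The hepatocyte list, of which 6 of 7 genes were measured, summed to 167 to 228 FPKM in sham, 394 to 595 in UUO2 and 127 to 191 in UUO7. In UUO2 against sham 1 of the 6 was higher, Fga, and 3 were lower, Alb among them, and its part in the rise of Cyp2a5 was not tested.

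The promoters of the pair differ little in sequence. The RefSeq promoter windows, 250 bases before to 50 after the start in build GRCm38.p6, at chr7:26306942-26307241 and chr7:26835089-26835388, both on the plus strand, share 294 of 301 aligned columns (97.67%), and the capitals mark the bases that differ or have no partner:
Cyp2a4: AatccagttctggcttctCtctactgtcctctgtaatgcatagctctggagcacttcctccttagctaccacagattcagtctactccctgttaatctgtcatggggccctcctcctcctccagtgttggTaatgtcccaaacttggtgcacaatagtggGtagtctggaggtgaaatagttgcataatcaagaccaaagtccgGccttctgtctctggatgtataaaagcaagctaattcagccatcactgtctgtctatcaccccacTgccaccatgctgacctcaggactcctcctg
Cyp2a5: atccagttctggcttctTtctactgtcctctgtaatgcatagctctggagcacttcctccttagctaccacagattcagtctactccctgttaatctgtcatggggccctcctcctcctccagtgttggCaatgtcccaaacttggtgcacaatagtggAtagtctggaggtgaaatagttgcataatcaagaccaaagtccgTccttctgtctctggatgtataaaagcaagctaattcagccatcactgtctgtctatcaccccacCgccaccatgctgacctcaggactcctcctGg
Both hold TATAAA and GTTAAT, the latter a half-site of the tubule factor HNF1. Of the 35 members 23 have an entry in the promoter table, and on both strands 6 of them (26.1%) hold TATAAA, against 13.6% of 32851 promoters in the table. GTTAAT was found in 3 (13.0%) against 7.1%, and AGGTCA, a half-site of nuclear receptors, in 4 (17.4%) against 16.3%. The AHR core letters TNGCGTG were in 0 of 23 windows against 5.07% of all. The 12 members with no entry include all 5 Cyp4a genes, so the motifs of their promoters were not analysed here.

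**Figure D4:**
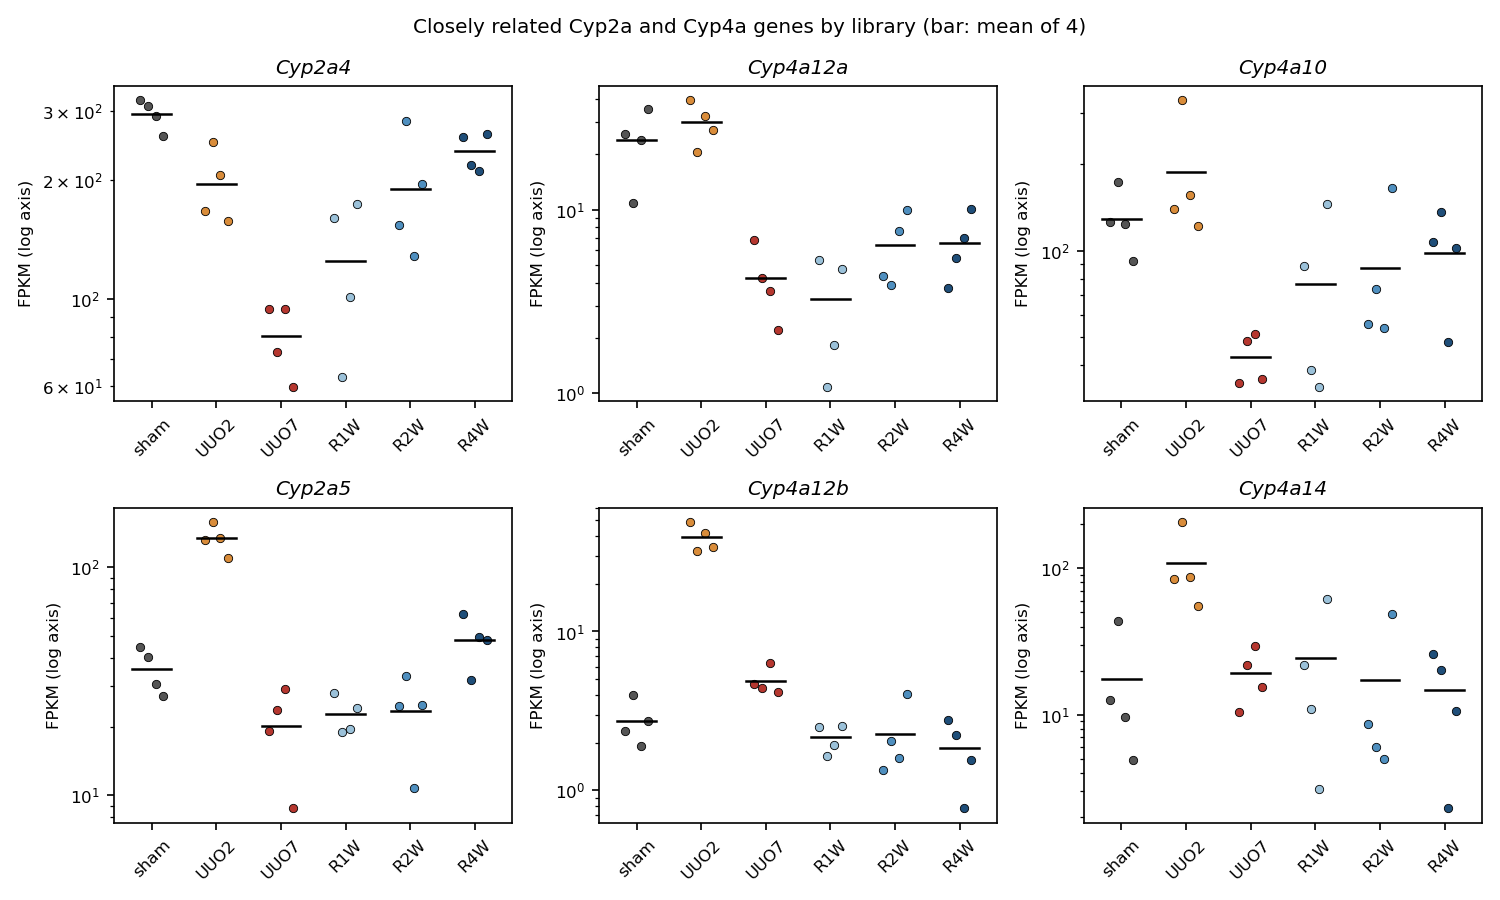
FPKM of closely related Cyp2a and Cyp4a genes in each library of the 6 groups, with dots for libraries and bars for the mean of 4. Cyp2a5, Cyp4a12b and Cyp4a14 are highest in UUO2, where all 4 libraries lie above the sham libraries, while Cyp2a4 is highest in sham.

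Cyp2f2, Cyp2s1 and Cyp2u1 were low in this kidney, with sham means of 2.09, 7.89 and 1.77 FPKM. Cyp2f2, best known from airway club cells, fell in UUO7 (-0.97, adjusted p = 3.42e-05) and Cyp2s1, an epithelial P450, rose (0.95, adjusted p = 2.37e-07). The UUO7 mean of Cyp2f2, 0.565 FPKM, lay under the lowest gene mean of the deposited table, 1 FPKM. Cyp2f2 is thus in the table through groups such as sham, and its fall carries that limit. Cyp2u1 had a difference of 0.15 (adjusted p = 0.294).

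Of the 5 sterol and bile acid enzymes 4 fell in UUO2, against 17.0% of all genes. In UUO7 2 fell and 2 rose, against 17.8 and 60.1% of all genes, and both rises were lost after rescaling. Cyp7b1, an oxysterol hydroxylase, and Cyp51, the demethylase of cholesterol synthesis, were the 2 that fell in UUO7. Cyp7b1 (chr3:18071950-18243338, minus strand) stood at 109, 80.1, 127 and 123 FPKM in sham, 33.6, 52.1, 40.8 and 27.4 in UUO2, 25.9, 28.8, 29.8 and 20.8 in UUO7, 62.1, 31.7, 62.9 and 92.3 in R1W, 52.5, 78.02, 67.1 and 59.1 in R2W and, in R4W, 41.6, 43.0, 40.2 and 56.9. Both obstructed groups lay below sham, R1W overlapped sham, and R4W lay below it. Its differences from sham were -1.51 in UUO2, -2.01 in UUO7 and -1.25 in R4W (adjusted p = 3.23e-05, 1.82e-07 and 0.000151). The change from UUO7 to R1W was 1.13 (adjusted p = 0.00502), and R4W against R1W was -0.37 (adjusted p = 0.285), not called. Cyp51 (chr5:4081145-4104746, minus strand) stood at 101, 86.4, 95.05 and 90.9 FPKM in sham, 41.3, 56.2, 37.8 and 32.9 in UUO2, 23.04, 25.2, 25.9 and 19.3 in UUO7, 45.6, 28.7, 44.7 and 59.3 in R1W, 40.7, 56.2, 43.4 and 52.5 in R2W and, in R4W, 45.9, 41.6, 40.96 and 56.5. No other library reached the sham range, and the differences from sham were -1.96 in UUO7 (adjusted p = 3.55e-09) and -1.01 in R4W (adjusted p = 5.11e-05).

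Cyp27a1, the mitochondrial sterol hydroxylase, stood at 32.1, 33.8, 32.97 and 29.3 FPKM in sham, 26.8, 31.6, 24.3 and 23.97 in UUO2, 40.7, 46.5, 48.7 and 50.4 in UUO7, 46.6, 47.6, 58.04 and 49.3 in R1W, 49.1, 45.4, 47.8 and 45.8 in R2W and, in R4W, 41.4, 46.8, 53.6 and 41.1. It was higher than sham in UUO7 (0.52, adjusted p = 3.91e-05), which after rescaling was 0.05 and no longer called. In UUO2 it was lower (-0.26, adjusted p = 0.0262), a call lost in 5 of 8 leave-one-out fits, at adjusted p up to 0.0917. Cyp39a1 and Cyp46a1, oxysterol and cholesterol hydroxylases, had sham means of 3.16 and 2.75 FPKM, and the UUO7 rise of Cyp46a1, 0.55, was lost after rescaling.

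Cyp1b1 and Cyp20a1 rose in obstruction and were still above sham in R4W. Cyp1b1 (chr17:79706953-79715041, minus strand), which metabolises steroids, retinoids and polycyclic hydrocarbons and is a target of the AHR, stood at 1.87, 2.38, 1.26 and 1.65 FPKM in sham, 4.99, 3.42, 2.91 and 4.15 in UUO2, 16.5, 21.3, 17.1 and 18.4 in UUO7, 15.1, 15.7, 18.8 and 16.4 in R1W, 15.5, 12.9, 18.6 and 13.03 in R2W and, in R4W, 13.2, 19.5, 17.01 and 9.83. Sham lay below every other group, and UUO2 below UUO7. The differences from sham were 0.80 in UUO2, 2.80 ± 0.17 in UUO7 and 2.48 in R4W (adjusted p = 0.000636, 3.38e-11 and 8.39e-10). From UUO7 to R4W it was not called (-0.32, adjusted p = 0.133). The 7 fibroblast markers summed to 21.5 to 55.4 FPKM in sham, 585 to 742 in UUO7 and 241 to 373 in R4W, with 7 of 7 higher in both against sham, and their part was not tested. Cyp20a1, an orphan P450 with no settled substrate, stood at 6.00, 7.68, 6.21 and 6.51 FPKM in sham, 9.79, 7.58, 10.6 and 10.2 in UUO2, 14.1, 13.6, 14.2 and 15.6 in UUO7, 13.2, 15.3, 14.1 and 15.1 in R1W, 14.1, 11.7, 13.9 and 12.2 in R2W and, in R4W, 10.8, 12.3, 11.8 and 11.2. It differed from sham by 1.02 in UUO7 and 0.73 in R4W (adjusted p = 2.93e-09 and 8.91e-07).

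Por (chr5:135670033-135735326, plus strand), which feeds electrons to the microsomal P450s, fell with them. It stood at 159, 131, 152 and 137 FPKM in sham, 62.8, 111, 59.95 and 52.3 in UUO2 and 40.2, 41.8, 23.4 and 36.1 in UUO7, and the 3 groups did not overlap. The differences from sham were -1.06 ± 0.26 (adjusted p = 0.00211) and -2.03 ± 0.26 (adjusted p = 5.13e-07). Recovery gave 69.3, 47.2, 21.7 and 49.7 FPKM in R1W, 63.3, 85.7, 57.5 and 80.7 in R2W and, in R4W, 98.1, 90.7, 88.8 and 106. R4W lay above UUO7 (1.44, adjusted p = 0.000185) and below every sham library, where the difference was -0.59 (adjusted p = 0.0546), and -0.96 (adjusted p = 0.0054) after rescaling. Per 100 FPKM of the 34 Cyp genes without Por, Por was at 3.40 ± 0.23 FPKM in sham (SD, n = 4), 3.38 ± 0.52 in UUO2, 3.05 ± 0.62 in UUO7 and 2.63 ± 1.01 in R1W. On the same scale R2W was at 3.75 ± 0.45 and R4W at 3.75 ± 0.28. The R1W mean was the lowest of the 6 groups, and its libraries were also the most spread.

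Set against the summed proximal tubule markers, the members at a lower percentage of sham than the marker sum numbered 9 of 35 in UUO2, 6 in UUO7, 6 in R1W, 4 in R2W and 8 in R4W. Those of UUO7 were Cyp2d12, Cyp2d26, Cyp2d9, Cyp2j11, Cyp4a12a and Cyp4b1. The median member was at 62.0% of sham in UUO7, 90.0% in UUO2 and 83.7% in R4W. The same counts and medians over all genes were not taken, so these values are a description only.

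Other genes of drug metabolism, from lists made with earlier results of these data known, were read in the same fit. The counts of these lists stand beside 17.8% of all genes lower and 60.1% higher in UUO7 against sham, 36.5% each way after rescaling, and 17.6% higher and 30.8% lower in R4W against UUO7. Of 4 measured flavin monooxygenases, which share substrates with P450s, 4 fell in UUO7 against sham and 3 rose in R4W against UUO7. Fmo1 had a mean of 130.2 ± 14.8 FPKM (SD, n = 4) in UUO7, below 342 ± 20.1 in sham, and of 211 ± 23.6 in R4W. Of 10 measured electron transfer partners, 4 fell and 5 rose in UUO7, with 6 lower and 1 higher after rescaling, and Cyb5a, the microsomal cytochrome b partner of P450s, was at 1728 ± 191 FPKM in sham and 695 ± 73.04 in UUO7. Of 12 haem enzymes, 5 fell and 3 rose in UUO7, with 10 lower and 1 higher after rescaling. Alas1, the first enzyme of haem synthesis, rose in UUO2 from 82.9 ± 16.6 to 172 ± 19.2 FPKM (1.06, adjusted p = 0.000175).

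Of 18 measured transcription factors that regulate P450 genes, 8 fell and 6 rose in UUO7 against sham, where 17.8% of all genes fell and 60.1% rose, with 15 lower and 2 higher after rescaling. Hnf4a, a factor of proximal tubule identity, was at 182 ± 19.4 FPKM in sham, 135 ± 27.6 in UUO2, 62.96 ± 8.09 in UUO7 and 99.9 ± 5.10 in R4W, a difference of -1.52 in UUO7 (adjusted p = 4.28e-08). Ppara fell in UUO7 (-1.77, adjusted p = 1.08e-06), and in UUO2 it was not called (-0.40, adjusted p = 0.185). Ahr rose in UUO7 (0.66, adjusted p = 0.00113), and Nr1i2, the xenobiotic receptor PXR, rose in UUO2 (0.90, adjusted p = 4.23e-07). In R4W against UUO7, 7 of the 18 rose and 1 fell, where 17.6% of all genes rose and 30.8% fell. Of 13 measured eicosanoid enzymes 2 fell and 9 rose in UUO7, shares of the list near those of all genes, with 3 lower and 7 higher after rescaling. Ephx2, the soluble hydrolase that opens arachidonic acid epoxides, fell (-1.32, adjusted p = 2.78e-08). Of 12 measured genes of retinoic acid synthesis and binding 9 rose and 0 fell in UUO7, where 60.1% of all genes rose, with 7 higher and 1 lower after rescaling, where 36.5% of all genes rose.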

How the data were processed

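The members and the gene lists were chosen with earlier results of these data known. The deposited table holds, per gene and library, expression values for 24 kidney libraries, and log2 fold changes and p-values of the authors' own comparisons. Its expression values were deposited without a named unit and were read as FPKM: their column sums, 717415 to 830179, differ between libraries, and multiplying by transcript length brings the ratio of the highest to the lowest sum from 1.16 to 1.08. As the table leaves out low genes, these sums cannot exclude another length-scaled unit, so FPKM is an assumption. FastQC, Bowtie2, RSEM, DESeq2 and build mm10 are named in the submitters' processing notes, and versions are not given in the sources used here. The lowest mean over the 24 libraries of a gene in the deposited table is 1 FPKM.

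Groups came from sample titles. limma 3.58.1 in R 4.3.3 was fitted to log2(FPKM + 1) over all 14785 genes and 24 libraries, with 1 coefficient per group and a mean-variance trend, after a test on simulated data. Benjamini-Hochberg adjustment covered all genes, and a gene was called at an adjusted p under 0.05. The p-values measure the spread between these animals, which the design text gives as 4 mice per group. Alternatives were a pseudocount of 0.1 or 10, a minimum mean of 5 FPKM, median-ratio rescaling, the 2 groups compared only, a fit without UUO2, R4W replicate 2 placed in R2W, each replicate left out and a replicate block. Values in every library were given for the 15 members with the highest mean, for at most 3 rising and 3 falling called members with the greatest log2 difference per comparison, and for Por, 25 members in all. Gene coordinates are those of the deposited table, and 29 of 35 are the same in GENCODE M21, the exceptions being Cyp2d26, Cyp1b1, Cyp2d22, Cyp2d9, Cyp4f17 and Cyp2d12. R2W entered the fit and was not compared. The highest correlation between libraries was 0.992, so none was counted as a repeat.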

Additional observations from a re-analysis of the deposited data

Results flagged for a closer look

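In groups of 4, single libraries far from the other 3 were looked for in 150 sets of values, the 25 named members in 6 groups. It was found in 6, where chance gives about 7.5. In UUO2 replicate 2, Cyp4a10 was at 332.76 FPKM against 121.91 to 155.57 in the other 3, and Cyp2j11 was at 49.74 FPKM against 15.24 to 20.17. Cyp4a14 was at 48.94 FPKM in R2W replicate 4 against 4.99 to 8.69. Cyp7b1 was at 56.86 FPKM in R4W replicate 4 against 40.17 to 43.0. Cyp4f13 was at 32.43 FPKM in UUO7 replicate 2 against 39.24 to 40.48, and Cyp4v3 was at 2.0 FPKM in sham replicate 2 against 1.13 to 1.27. The Cyp4f13 library did not stand out after rescaling.

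For 3 members that were called against sham both at day 2 and at day 7 the effects had opposite signs. A gap between UUO7 and UUO2 follows from how these 3 were picked and is given, on the log2 scale, as a description with no test. Cyp2a5 was 1.89 above sham in UUO2 and at -0.89 in UUO7, a difference of -2.78, and the signs were opposite also after rescaling. Cyp27a1 was at -0.26 and 0.52, a difference of 0.79. Cyp46a1 was at -0.58 and 0.55, a difference of 1.13. After rescaling the last 2 no longer had 2 calls of opposite sign.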

How the results depend on the processing

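Among 115 called values of the 25 members given by library, 108 kept their direction and call after rescaling, 6 lost the call and 1 reversed, Cyp4f13 in UUO7 against sham at -0.17. Rescaling left 7 members higher in UUO7 against sham (36.5% of all genes) and 7 in UUO7 against UUO2 (30.0%). In R1W against UUO7, 1 member was lower with a pseudocount of 0.1, without the UUO2 libraries and with a replicate block, beside 7.01, 10.0 and 7.14% of all genes. In R4W against R1W, limma called 0 higher and 0 lower when only the 2 groups were fitted (0.21 and 0.879% of all genes), with 11 higher and 3 lower at an unadjusted p under 0.05 (9.1 and 21.5%) and 8 higher and 2 lower in the authors' deposited table, beside 8.58 and 8.96% of all genes there. At that setting 8 of the 115 values lost their call. In the same comparison 2 were lower without the UUO2 libraries and with R4W replicate 2 placed in R2W, beside 15.6 and 12.6% of all genes. That placing ended 5 of 44 calls, with 39 kept: Cyp4a10 in R4W against UUO7 (limma adjusted p = 0.108) and, in R4W against sham, Cyp2e1 (0.0519), Cyp2d26 (0.0536), Cyp2d9 (0.0876) and Cyp2d12 (0.285). Leaving out each replicate gave 0 to 2 lower in R1W against UUO7 (3.92 to 9.67% of all genes), and 2 to 8 higher (1.06 to 7.23%) and 0 to 2 lower (3.87 to 17.2%) in R4W against R1W; in all, 861 of 920 leave-one-out values kept their call and 59 lost it. The other counts stayed within 1.5 times under the settings run. The cause of these shifts was not tested. The replicate block kept 111 of the 115 calls and gave 6 lower in R4W against UUO7 (29.6% of all genes), 5 higher in R4W against R1W (4.65%) and 12 lower in R4W against sham (11.4%). Same-numbered libraries did not deviate together throughout, with mean correlations from -0.17 to 0.15. The lowest single correlation was under 0.1 in every comparison, and the highest was 0.45, in R1W against UUO7. The numbers were therefore not taken to pair animals. With FPKM and no counts, the depth that limits low members is unknown.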
